A study of Mus musculus with 6 samples.

Results

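The GATA factors Gata4 and Gata6, their cofactor gene Zfpm2, the zinc finger gene Wt1, the bZIP gene Cebpb, the MEF2 genes Mef2a, Mef2c and Mef2d and the bHLH gene Tcf21 were followed in MA-10 cells after an siRNA against COUP-TFII. These 9 of 25072 gene symbols were taken from the annotation of the array, which gave 10 of 26836 probe sets with a gene symbol, since Mef2d has a pair of probe sets. A probe set is a group of short probes on the array that together report 1 transcript unit. MA-10 is a mouse Leydig tumour cell line that makes steroids, and COUP-TFII is the orphan nuclear receptor encoded by Nr2f2. The 3 control cultures had received a control siRNA and the 3 others an siRNA targeting COUP-TFII. All 6 were labelled as biological replicates of transiently transfected cells, and their RNA was taken 48 h after transfection. By array signal the knockdown was partial, as the Nr2f2 probe set stood at 64.4% of control (95% interval 56.0 to 74.1). COUP-TFII protein was not read here, and the line is a single tumour line in culture.

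GATA factors bind the sequence core GATA and, in Leydig cells, act on promoters of steroidogenic genes, where the cofactor FOG2 (Zfpm2) modulates them. MEF2 proteins are MADS box factors that work as dimers, are held back by class IIa histone deacetylases and are switched on by calcium and MAP kinase signals. C/EBP beta binds beside SF-1 and GATA4 on the Star promoter, WT1 is needed for the early gonad and later marks Sertoli cells, and TCF21 is a bHLH factor of gonadal progenitors that restrains the steroidogenic fate. The arrays read RNA and not protein or phosphorylation, through which GATA4 is known to be activated by protein kinase A.

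None of the 9 genes passed the test for a difference in RNA level. By limma, 0 of the 10 probe sets passed a Benjamini-Hochberg adjusted p of 0.05, against 4.51% of all probe sets tested (1.59% higher and 2.92% lower). At an unadjusted p under 0.05 there was 1 of 10, against 19.3% of all. The 3 arrays of each group did not overlap for 2 of 10, Gata4 and 1 probe set of Mef2d, against 25.2% of all, and both were lower (12.2% of all were lower and 13.0% higher without overlap). Differences, given throughout as COUP-TFII siRNA minus control on the log2 scale, ran from -0.23 to 0.12 over the 10. Their median was 0.01, the same as over all 26836 probe sets, and their median size without sign was 0.07, also the same as over all. For 8 of the 10 the 95% interval held no change over 1.2-fold in either direction, which was so for 71.4% of all probe sets. For all 10 it held no change over 1.5-fold, but the share of all probe sets for which this was so was not counted.

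**Figure D1:**
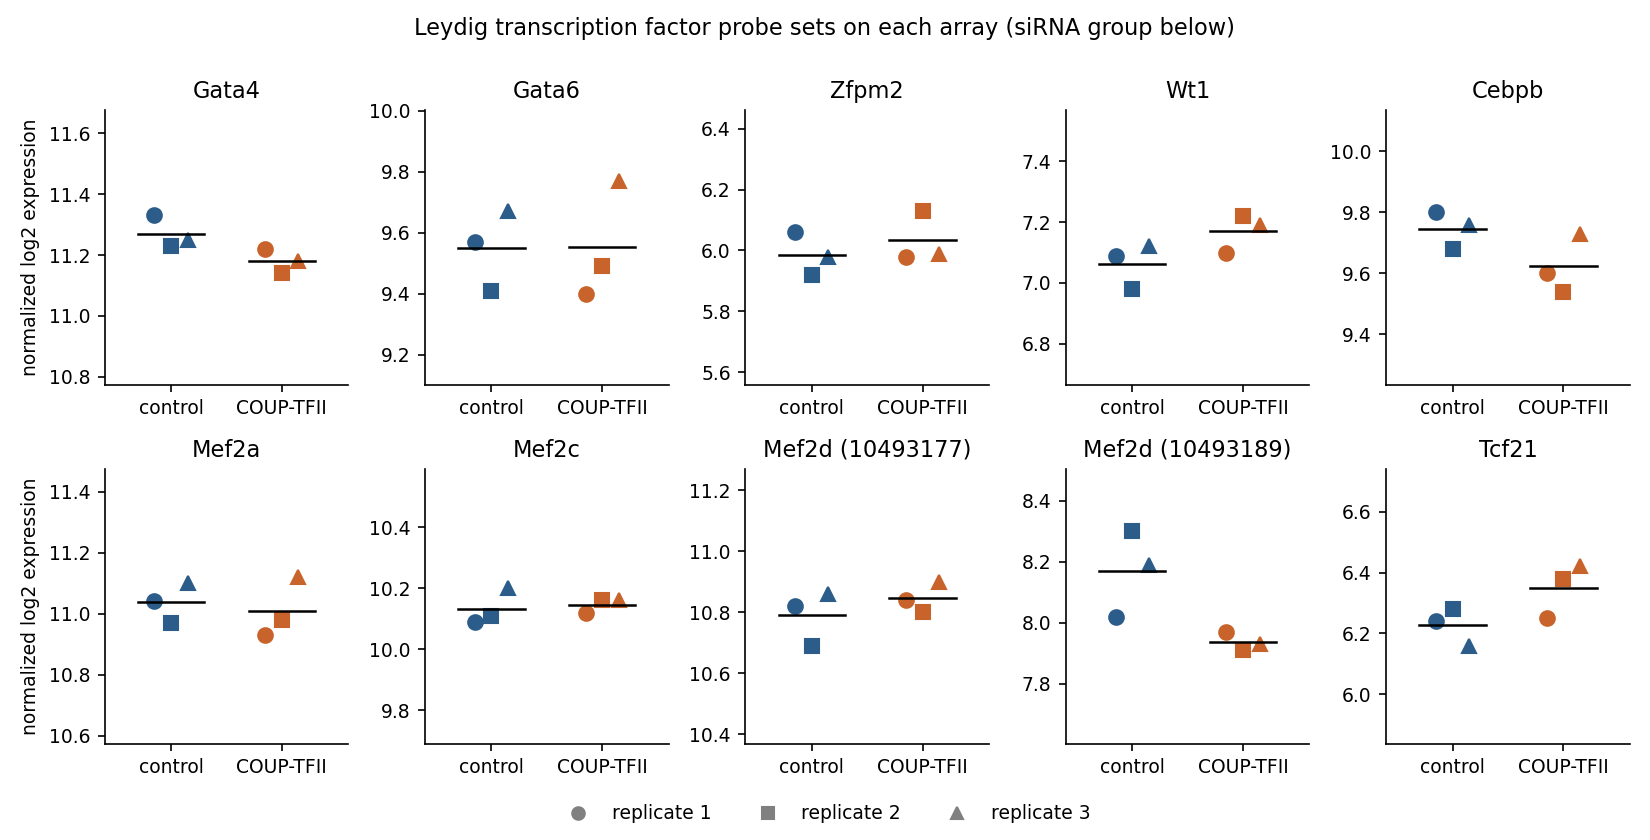
Normalized log2 expression (vertical axis, each panel spanning the same range) of the 10 probe sets in 3 control siRNA arrays (blue) and 3 COUP-TFII siRNA arrays (orange). Shapes are replicate numbers and black lines group means. The groups separate for Gata4 and for Mef2d probe set 10493189 and overlap in the other 8 panels.

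Across the series, 426 probe sets were higher and 783 lower in COUP-TFII siRNA cells, or 308 and 1184 with each array centred on its median. Array medians were 7.571, 7.56 and 7.564 in control and 7.595, 7.595 and 7.596 in COUP-TFII siRNA arrays. Every treated array thus had a higher median than every control array, and the source of this shift was not tested. The level of a probe set depends on its probes as well as on its RNA, so tests compare arrays and never genes. As a guide to signal strength, the mean of each probe set over the 6 arrays is given as its percentile among all probe sets with a symbol, called brightness. Brightness is subject to the same effect of the probes, so its ranks are not ranks of RNA amount. The files used here hold no call of whether a probe set lies above background. Markers of Leydig cells were bright, as all 8 measured markers lay above the median, at percentiles 54.5 to 98.2. Of the markers of other cell types, 3 of 8 for Sertoli cells (Sox9, Dhh and Gata1) lay above the median. For peritubular myoid cells, germ cells, macrophages and endothelium it was 1 of 5 each, with endothelial Cdh5 at percentile 93.9. Of these 28 markers of other cells, Ddx4 of germ cells was the 1 that changed, falling by 0.32 (SE 0.06, limma adjusted p = 0.0217), but not when any 1 of control siRNA replicates 2 and 3 or COUP-TFII siRNA replicates 1 and 2 was left out (0.06 to 0.0916). The part of such markers in the values of the transcription factors was not tested. The RNA came from whole cultures of a single cell line. These markers therefore describe signal on the array and are no count of cells of other types.

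Gata4, which encodes the main GATA factor of Leydig cells, was bright and did not pass the test. Its probe set 10420747 (chromosome 14 band D1) gave control values of 11.33, 11.23 and 11.25 and values of 11.22, 11.14 and 11.18 after the COUP-TFII siRNA. The highest treated array lay just under the lowest control array. The difference was -0.09 (SE 0.05, 95% interval -0.21 to 0.03, limma adjusted p = 0.386), or 94.0% of control. An exact permutation test gave 0.1, its lower limit with groups of 3, so it cannot reach 0.05 for a single gene. Gata4 lay at percentile 91.5 of brightness, the highest of the 10 probe sets.

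Gata6 (probe set 10453857, chromosome 18 band A1), a GATA factor that can overlap with GATA4 in function, had equal group means. It read 9.57, 9.41 and 9.67 in control and 9.40, 9.49 and 9.77 in COUP-TFII siRNA arrays. Both groups spread over a similar range, with SDs of 0.13 and 0.19, and replicate 3 was the highest array of each. The difference was 0.00 (SE 0.10, limma adjusted p = 0.994), and the interval of -0.23 to 0.23 was the widest among the genes with 1 probe set. Zfpm2 (probe set 10423902, chromosome 15 band C), whose product FOG2 has no DNA contact of its own and acts through GATA factors, read 6.06, 5.92 and 5.98 in control and 5.98, 6.13 and 5.99 in treated arrays. The groups overlapped, with a difference of 0.05 (SE 0.06, interval -0.09 to 0.18, limma adjusted p = 0.72). At percentile 23.0 of brightness, Zfpm2 was the dimmest of the 10.

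Wt1 (probe set 10474295, chromosome 2 band E) lay slightly higher in treated cells without passing the test. It read 7.09, 6.98 and 7.12 in control and 7.10, 7.22 and 7.19 in COUP-TFII siRNA arrays, with 1 treated array inside the range of the controls. The difference was 0.11 (SE 0.06, interval -0.02 to 0.24, limma adjusted p = 0.356), and brightness was at percentile 43.3. Cebpb (probe set 10478890, chromosome 2 band H3) lay lower, also without passing. It read 9.80, 9.68 and 9.76 in control and 9.60, 9.54 and 9.73 in treated arrays. COUP-TFII siRNA replicate 3 lay among the controls and the other two below them. The difference was -0.12 (SE 0.06, interval -0.27 to 0.02, limma adjusted p = 0.337), or 91.8% of control, and the lower bound is a fall to 83.2%.

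Mef2a and Mef2c, close paralogs that bind the same A and T rich element, did not pass either. Mef2a (probe set 10564451, chromosome 7 band C) read 11.04, 10.97 and 11.10 in control and 10.93, 10.98 and 11.12 in treated arrays, with a difference of -0.03 (SE 0.06, interval -0.17 to 0.11, limma adjusted p = 0.858). Mef2c (probe set 10406434, chromosome 13 band C3) read 10.09, 10.11 and 10.20 in control and 10.12, 10.16 and 10.16 in treated arrays, all of the latter inside the range of the controls. Its difference was 0.01 (SE 0.05, interval -0.10 to 0.13, limma adjusted p = 0.92), so that a change beyond 93.4% or 109.1% of control lay outside the interval. Both probe sets were bright, at percentiles 89.7 and 79.9. Their 3 treated and 3 control arrays interleave in the plot of the values on each array.

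Mef2d gave the largest difference of the 9 genes on 1 probe set and no such difference on the other. Probe set 10493189 read 8.02, 8.30 and 8.19 in control and 7.97, 7.91 and 7.93 in COUP-TFII siRNA arrays. All treated arrays lay below all controls, with control replicate 1 close to them, and the treated arrays were tight (SD 0.03 against 0.14). The difference was -0.23 (SE 0.07, interval -0.40 to -0.07), or 85.1% of control, with an unadjusted limma p of 0.0108 and an adjusted p of 0.115, and an exact permutation p of 0.1. It passed without control siRNA replicate 1, at -0.31 (adjusted p = 0.0372, where 2.75% of all probe sets were called), and when only brighter probe sets were tested (adjusted p = 0.0487, where 17.7% of probe sets were called), and over all 14 alternatives adjusted p ranged from 0.0372 to 0.297. Probe set 10493177 read 10.82, 10.69 and 10.86 in control and 10.84, 10.80 and 10.90 in treated arrays. Here the groups overlapped, and the difference was 0.06 (SE 0.06, interval -0.08 to 0.19, limma adjusted p = 0.651).

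Both Mef2d probe sets are annotated to chromosome 3 band F1 and to no other gene. The deposited annotation assigns 11 transcript accessions to 10493189 and 24 to 10493177, and all 11 are among the 24. No accession is named for 10493189 alone, while others are named for 10493177 alone. Their log2 ratio within an array, 10493189 over 10493177, was -2.80, -2.39 and -2.67 in control and -2.86, -2.90 and -2.97 in treated arrays. Every treated array had a lower ratio than every control array, a mean shift of -0.29, with an exact permutation p of 0.1. This comparison was chosen after the values were seen. Probe set 10493177 was the brighter, at percentile 87.8 against 55.3, and stands for Mef2d where a gene is given by 1 probe set below. What part of the transcript each probe set reads was not used here.

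Tcf21 (probe set 10368240, chromosome 10 band A3) was dim, at percentile 28.0, and had the highest difference among the 10 probe sets. It read 6.24, 6.28 and 6.16 in control and 6.25, 6.38 and 6.42 in COUP-TFII siRNA arrays. Of the treated arrays, 2 lay above all controls and replicate 1 among them. The difference was 0.12 (SE 0.06, interval -0.01 to 0.26, limma adjusted p = 0.319), or 108.8% of control.

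**Figure D2:**
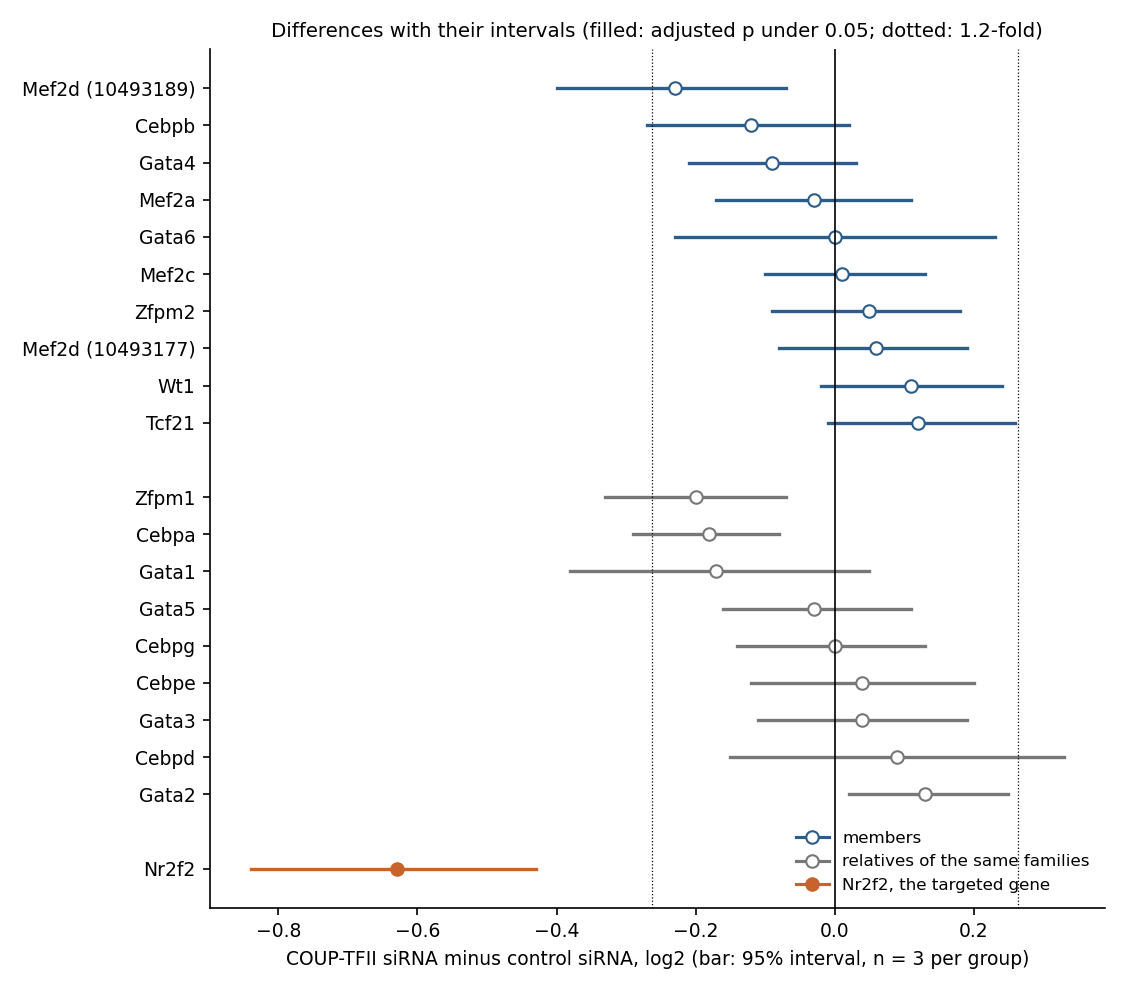
Difference between COUP-TFII siRNA and control siRNA on the log2 scale (horizontal axis) with its 95% interval for the 10 probe sets (blue), 9 relatives of the GATA, FOG and C/EBP families (grey) and Nr2f2 (orange), n = 3 arrays per group. Nr2f2, at -0.63, is the only filled point (adjusted p under 0.05), and the dotted lines mark 1.2-fold.

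Promoter sequences from RefSeq (GRCm38.p6, 250 bases before to 50 after a transcript start) were matched for 5 of the 9 genes, Cebpb, Mef2a, Mef2c, Mef2d and Tcf21, with 7 promoters in all. Matches on either strand were sought for 3 motifs. These were the nuclear receptor site AGGTCA, which COUP-TFII binds as repeats, the GATA site as AGATAA or AGATAG or TGATAA or TGATAG, and the MEF2 site as CTA and TAG with any 4 bases between them. AGGTCA was found in 2 of the 7 promoters, both of Mef2c, and in 16.3% of all 32851 promoters. The GATA site was found in 1, that of Tcf21, against 29.8% of all, and the MEF2 site in 1, that of Mef2a, against 3.69% of all. A match is a description of letters and not evidence of binding. The stretches that hold a match are shown 5′ to 3′ on the strand of the gene, with the match in capitals, because they are where a receptor, GATA or MEF2 site could be read in the promoters of genes that did not pass the test.
Mef2a, chr7:67372831-67372880, minus strand, MEF2 site: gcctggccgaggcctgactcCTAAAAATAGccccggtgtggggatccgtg
Tcf21, chr10:22820149-22820194, minus strand, GATA site: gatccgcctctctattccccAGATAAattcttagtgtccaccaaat
Mef2c, chr13:83523406-83523444, plus strand, AGGTCA on the opposite strand: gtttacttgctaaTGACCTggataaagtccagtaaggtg
Mef2c, chr13:83573471-83573516, plus strand, AGGTCA on the opposite strand: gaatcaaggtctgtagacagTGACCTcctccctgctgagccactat
Mef2c, chr13:83573515-83573560, plus strand, AGGTCA on the opposite strand: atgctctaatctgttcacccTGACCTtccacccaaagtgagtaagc
The MEF2 site of Mef2a begins 2 bases before the annotated start and reads as a match on both strands, since it is a palindrome in the letters searched. The GATA site of Tcf21 begins 31 bases before the start. The AGGTCA matches of Mef2c lie in 2 of its 3 annotated promoters, beginning 237 bases before 1 start and 116 and 72 bases before another. The 2 last stretches lie in the same promoter and overlap at chr13:83573515-83573516.

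No GATA, FOG or C/EBP relative and no regulator of MEF2 passed the test with all probe sets that carry a symbol, though Zfpm1, Mapk7 and Cebpa passed under some alternatives. Of 12 GATA factors and cofactors, 0 rose and 0 fell by limma, with 2 at an unadjusted p under 0.05 (19.7% of 24032 genes with a single symbol), and their median difference was 0.00 against 0.01 for all genes. Over those genes 1.6% were called higher and 3.03% lower. Zfpm1, which encodes FOG1, the other FOG cofactor, differed by -0.20 (SE 0.06, limma adjusted p = 0.0875) without overlap, from 9.57 ± 0.05 to 9.37 ± 0.08 (SD, n = 3), where 25.7% of genes had groups without overlap. It passed under 4 of 14 alternatives, among them median centring (adjusted p = 0.0478). Gata2 differed by 0.13 (SE 0.05, adjusted p = 0.174), Gata1 by -0.17 (SE 0.10), Gata3 by 0.04 (SE 0.06) and Gata5 by -0.03 (SE 0.06).

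Among 26 measured MEF2 factors and regulators, 0 rose and 0 fell by limma, with 5 at an unadjusted p under 0.05, and the median difference was -0.01. The list holds the class IIa deacetylases, calcium and calmodulin dependent kinases, salt inducible kinases, the ERK5 pathway and coactivators. The smallest p-values were those of Mapk7, the gene of the kinase ERK5 that activates MEF2, at 0.14 (SE 0.05, limma adjusted p = 0.133, and 0.0442 when only brighter probe sets were tested), and of Ncoa2, the coactivator gene GRIP1, at 0.16 (SE 0.05, adjusted p = 0.144). Mef2b and Hdac5 lie only on probe sets that name a further gene and were left out. Among 6 C/EBP factors, 0 rose and 0 fell by limma, with 1 at an unadjusted p under 0.05 and a median of -0.06. That 1 was Cebpa, at -0.18 (SE 0.05, limma adjusted p = 0.0686) without overlap. Cebpa passed when the arrays were median centred (limma adjusted p = 0.0355, with 5.56% of all probe sets called), quantile normalized (0.0301, with 5.25%) or cyclic loess normalized (0.0262, with 5.51%). Cebpd differed by 0.09 (SE 0.11), Cebpe by 0.04 (SE 0.07) and Cebpg by 0.00 (SE 0.06).

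Calls appeared in the lists drawn around WT1 and TCF21, which were counted and not tested. Over all 24032 genes with a single symbol, 1.6% were called higher and 3.03% lower. An unadjusted p under 0.05 was found for 19.7% of them. Of 10 genes of WT1, its cofactors and the EGR zinc fingers, 1 fell and 0 rose. Of these 10, 3 had an unadjusted p under 0.05, and the median was 0.07. The one that fell was Pawr, which encodes the WT1 binding corepressor PAR-4, by 0.44 (SE 0.09, limma adjusted p = 0.0266), to 73.8% of control. Pawr read 9.19, 9.20 and 9.48 in control and 8.82, 8.79 and 8.94 in treated arrays. It lost the call when any 1 of the COUP-TFII siRNA replicates was left out (adjusted p = 0.0956, 0.112 and 0.0561 without replicates 1, 2 and 3). Egr1, an immediate early gene whose zinc fingers resemble those of WT1, varied from 7.86 to 10.4 over the 6 arrays, in both groups, with an SE of 0.67, far above that of any gene named here. Replicate 1 of each group was its lowest array.

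Of 15 bHLH relatives of TCF21, E proteins and ID inhibitors, 2 fell and 0 rose. Of these 15, 3 had an unadjusted p under 0.05, and the median was 0.04. Msc, the gene of musculin and the closest relative of Tcf21, fell by 0.39 (SE 0.05, limma adjusted p = 0.00846), to 76.5% of control. It read 8.75, 8.81 and 8.68 in control and 8.43, 8.31 and 8.35 in treated arrays. Id1, whose product keeps bHLH factors from DNA, fell by 0.21 (SE 0.04, adjusted p = 0.0371) and missed the threshold in each of the 6 fits without 1 replicate (0.0757 to 0.123). Of 24 other gonadal transcription factors, 2 rose and 0 fell. Of these 24, 6 had an unadjusted p under 0.05, and the median was 0.04. The 2 that rose were Maf, at 148.9% of control (SE 0.05 on a difference of 0.57, adjusted p = 0.00118), and Nr0b1, the gene of DAX-1, by 0.25 (SE 0.05, adjusted p = 0.0353). Nr0b1 missed the threshold in each of the 6 fits without 1 replicate (0.0654 to 0.122).

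**Figure D3:**
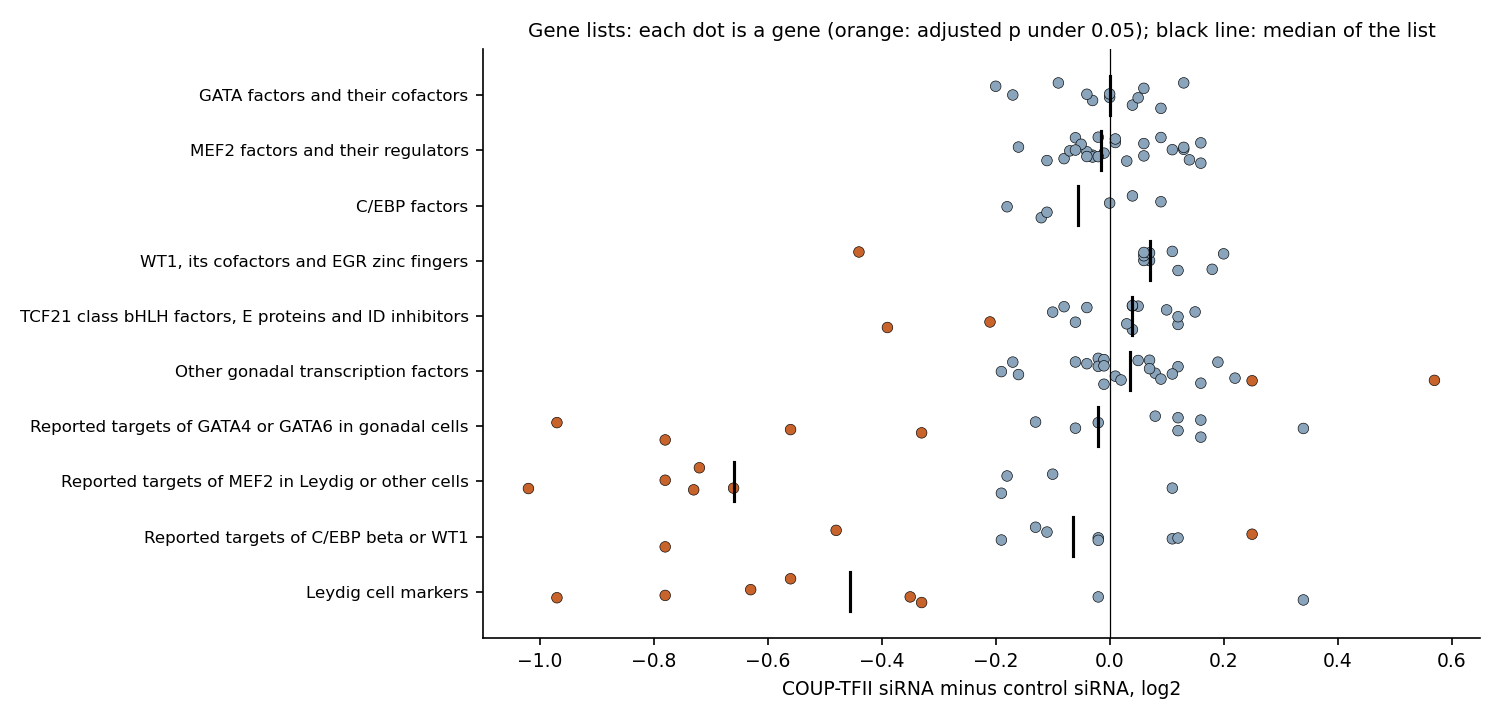
Difference between COUP-TFII siRNA and control siRNA on the log2 scale (horizontal axis) for each measured gene of 10 lists (rows). Orange dots passed an adjusted p of 0.05 and black lines are list medians. The GATA, MEF2 and C/EBP rows hold no orange dot. The row of reported MEF2 targets has its median at -0.66. The lists of targets were drawn up with results of these data known, so rows of targets and factors are not a fair contrast.

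Some genes reported as targets of these factors fell, and whether they differ from the factors' own genes was not tested. The lists of targets were drawn up with results of these data known and are no independent evidence of a direction. Over all 24032 genes with a single symbol, 1.6% were called higher and 3.03% lower. Of 13 measured genes reported as targets of GATA4 or GATA6 in gonadal cells, 4 fell and 0 rose, namely Star, Inha, Hsd3b1 and Cyp11a1, with a median of -0.02. Cyp17a1, the gene of the enzyme that leads to androgens, lay higher without passing, at 126.6% of control (difference 0.34, SE 0.13, limma adjusted p = 0.201), and its groups overlapped. Star, the cholesterol carrier of acute steroid synthesis, stood at 58.0% of control (limma adjusted p = 0.000755), beside Gata4 at 94.0% and Gata6 at 100.2%. Leaving out COUP-TFII siRNA replicate 2 took the call from Hsd3b1 (0.0651) and Cyp11a1 (0.0798), and leaving out replicate 3 of that group took it from Cyp11a1 (0.0651). Of 9 measured genes reported as MEF2 targets in Leydig or other cells, 5 fell and 0 rose, with a median of -0.66. Besides Star these were the glutathione transferase genes Gsta3, Gsta2 and Gsta4, at 49.2%, 60.6% and 63.4% of control, and the steroid reductase gene Akr1c14, at 60.3%. Of 10 genes reported as targets of C/EBP beta or WT1, Star and the hormone receptor gene Amhr2 (71.6% of control) fell and Nr0b1 rose, with a median of -0.07. Insl3 lies only on a probe set named for Jak3, and Gsta1 on one with a predicted gene, so both were left out. Of 8 measured Leydig cell markers, 6 fell and 0 rose, with a median of -0.46, but this count holds Nr2f2, the gene the siRNA targets. Without Nr2f2, 5 of 7 fell and 0 rose, with a median of -0.35, and 4 of the 5 are also on the GATA list.

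The probe set with the smallest p among the 10 of the 9 genes, 10493189 of Mef2d, was set against 17613 genes by Pearson correlation over the 6 arrays, which share the group difference and all array effects. Dkkl1 followed it most closely (r = 0.999), then Cenpk and Aloxe3 (both r = 0.993). Like Mef2d, none of these 3 passed the test, with differences of -0.20, -0.17 and -0.18. With 6 arrays and that many genes, these are given as a description only.

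**Figure D4:**
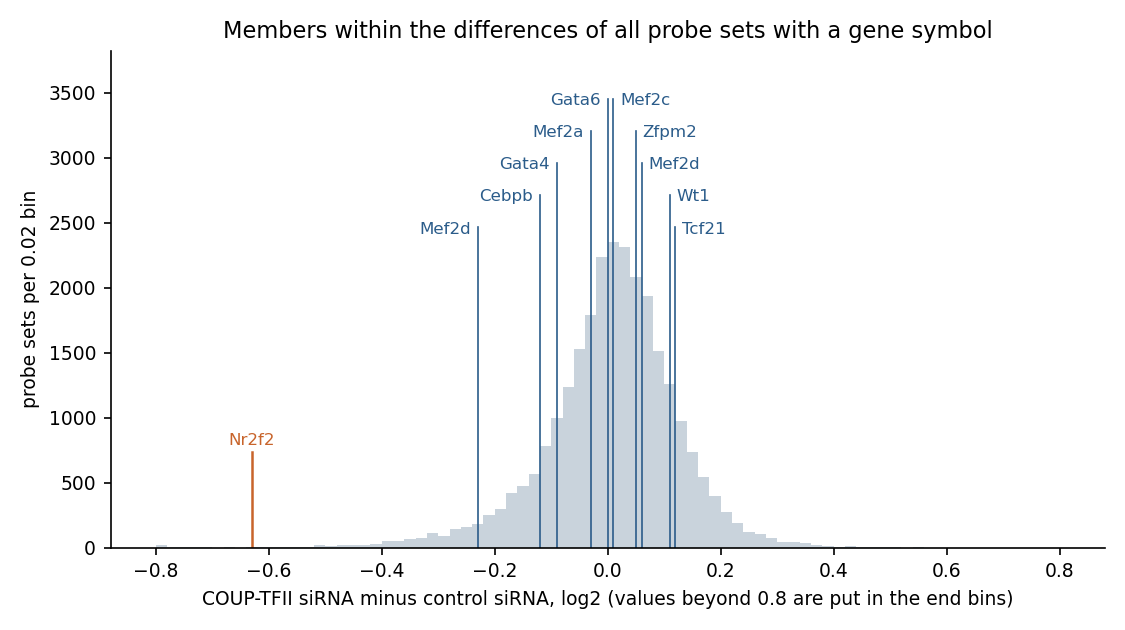
Histogram of the difference between COUP-TFII siRNA and control siRNA on the log2 scale (horizontal axis) for 26836 probe sets with a gene symbol, counted per bin of 0.02 (vertical axis). Blue lines mark the 10 probe sets of the 9 transcription factor genes, from -0.23 to 0.12, and the orange line marks Nr2f2 at -0.63.

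The authors' deposited table of all genes gives a ratio and an unadjusted p for each probe set, from a model whose arrays are not all known. In the authors' deposited table Mef2d probe set 10493189 has a ratio of 0.828 (unadjusted p = 0.00958), Cebpb 0.898 (0.0122) and Gata4 0.942 (0.027). These are 3 of 10 probe sets with an unadjusted p under 0.05 in the authors' deposited table, against 21.4% of all 26836, and the other 7 lie between ratios of 0.979 and 1.07. None of the 9 genes is on the authors' deposited list of 334 changed probe sets, in which each fold is at least 1.3.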

How the data were processed

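RNA of 6 MA-10 cultures was hybridised to Affymetrix arrays from 200 ng of total RNA, per the labels' protocols. The submitters' processing notes name Partek 7.0, while the method of background correction, probe summary and normalization is not given in the sources used here. The authors deposited normalized log2 expression for 35556 probe sets, with a range of 3.15 to 14.3, a scale inferred from those numbers and from the deposited ratios. The authors' deposited tables give a linear ratio, a signed fold (a score) and an unadjusted p-value per probe set.

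The 26836 probe sets with a symbol were fitted with limma 3.58.1 in R 4.3.3 (lmFit and eBayes, group as the only term, all 6 arrays), with Benjamini-Hochberg adjustment over all of them. Intervals use limma's moderated error, and the number of arrays limits the precision. The fit was run on simulated data drawn from limma's own fitted model, which cannot show that the model suits these 6 arrays. Genes of lists were taken at their brightest probe set with a single symbol, which gave 24032 genes, and lists were counted, not tested. All probe sets of the 9 genes are named, with Nr2f2, the other GATA, FOG and C/EBP genes, up to 6 changed genes of each list (or the 2 with the smallest p) and the 3 most correlated genes. Other genes were named after their values were seen. The genes and lists were chosen with earlier results of these data known. The alternatives were 3 normalizations, brighter or all probe sets, an intensity trend, array weights, the replicate number as a block and leaving out each replicate.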

Additional observations from a re-analysis of the deposited data

How the results depend on the processing

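The count of 1209 changed probe sets became 2375 among brighter probe sets, 436 when all 35556 were fitted, 2132 with a prior that follows intensity and 711 when the replicate number was a block. The count lay between 306 and 737 when 1 replicate was left out, lowest without COUP-TFII siRNA replicate 2. The count of 0 changed probe sets among the 9 genes became 1, Mef2d 10493189, among brighter probe sets and without control siRNA replicate 1 (0 to 1 over the fits without 1 replicate). It stayed 0 under the other 12 alternatives. Differences near 0 changed sign without passing the test. Gata6 went to -0.03 after median centring, 0.00 (from below) after quantile normalization and -0.07 with array weights, and Mef2c to -0.02 after median centring and -0.01 with array weights. Without 1 replicate each, Gata6 ranged from -0.11 to 0.08, Mef2a from -0.08 to 0.01 and Mef2c from -0.01 to 0.05, and the relatives Gata3 from -0.03 to 0.08, Gata5 from -0.07 to 0.01, Cebpd from -0.03 to 0.20, Cebpe from -0.03 to 0.10 and Cebpg from -0.05 to 0.03. Same-numbered replicates shared deviations from their group means at r = 0.108, -0.0482 and 0.172. Replicates with different numbers did so at r = -0.225 to 0.128. With 3 arrays per group, these values do not settle whether the numbers pair the samples. Of the genes named, Id1, Nr0b1 and Ddx4 missed the threshold with the block (adjusted p = 0.0731, 0.0601 and 0.0521). Of the 10 probe sets 4 were highest in replicate 3 of both groups, against 16.9% of all. Fitting all probe sets took the call from Pawr, Id1, Nr0b1, Hsd3b1, Cyp11a1 and Ddx4 (0.0563 to 0.0868). No scanner file was used here, so signal over background limits the dim probe sets of Zfpm2 and Tcf21 to an unknown degree.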
